A study of Homo sapiens with 4 samples.

Results

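Narrow, very strong sites of the chromatin protein DPF2 were described at 9 named genes, EPS15, AIFM1, CENPU, KRT8, UNC5A, WWOX, WWP1, INTS10 and ELP2. Each site is a 1 kb region of hg19, given by gene name and position, and the 9 regions were chosen by their measured DPF2 level, narrowness and ratio of DPF2 to H3K14cr in the same 4 libraries. They are 9 of the 5582 regions of 1 kb enriched for DPF2, among 2598309 regions with at least 1 read in some library. Because these readouts chose the members, the DPF2 level, the width and the ratio are given as a description with no test. No hg19 annotation was used here, so which exon, intron or start lies under each site was not analysed.

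The study measured chromatin immunoprecipitation followed by sequencing (ChIP-seq) in K562, a human leukaemia line that carries the BCR-ABL1 fusion and an abnormal number of many chromosome segments. All 4 libraries came from cells of wild-type genotype grown in RPMI1640 medium with 10% fetal bovine serum and fixed with formaldehyde. The groups differed only in the antibody, which was directed against DPF2 in 2 libraries and against histone H3 crotonylated at lysine 14 (H3K14cr) in the other two. DPF2 libraries held 7787444 and 13317496 reads and H3K14cr libraries 10880366 and 17369133. Over all 1 kb regions the replicates of each antibody agreed within sampling noise (chi-square per degree of freedom 0.981 in DPF2, 0.990 in H3K14cr). The labels do not say that replicates came from separate cultures, so each antibody was counted as 1 sample and no p-value is given between the antibodies.

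DPF2 is a subunit of the BAF complex, a SWI/SNF remodeller that uses ATP to slide or evict nucleosomes at promoters and enhancers. Its tandem PHD fingers bind the histone H3 tail and recognise acylated lysine 14, crotonylated lysine included. H3K14cr is a histone acylation found at active promoters and enhancers, which often flanks a nucleosome-poor centre where transcription factors and remodellers sit. The 9 genes belong to different pathways. EPS15 (an adaptor of clathrin-mediated endocytosis), UNC5A (a netrin receptor), WWOX (a WW-domain oxidoreductase) and WWP1 (a HECT-type ubiquitin ligase) act in trafficking, signalling and protein turnover. AIFM1 is a mitochondrial flavoprotein with a role in cell death, and KRT8 is a keratin of simple epithelia. CENPU (a centromere protein), INTS10 (a subunit of Integrator) and ELP2 (a subunit of Elongator) belong to complexes that act on chromosomes, nascent RNA and transfer RNA.

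RefSeq promoter windows on GRCh38.p14, from 250 bases before to 50 after a gene start, were matched by symbol for 7 of the 9 genes, and WWP1 and INTS10 were not matched. The windows are in another build than the sites, so whether a window lies under its DPF2 site was not tested. Of 12 short motifs searched on both strands, none occurred in the windows of all 7 genes. CCAAT (bound by NFY) occurred for 3 genes, AIFM1, CENPU and EPS15 (at the less GC-rich of its listed starts), and in 34.6% of all 35116 promoter windows of the same length. GGGCGG (SP and KLF factors) occurred for 4 genes, EPS15, UNC5A, WWOX and ELP2, and in 45.0% of all windows. Windows of AIFM1, CENPU, WWOX and ELP2 are shown because they carry these 2 motifs and include the members with the highest and the lowest ratio of DPF2 to H3K14cr in the 1 kb region, described below. Each is written 5′ to 3′ on the strand of its gene, with CCAAT or GGGCGG, or the reverse complement of either, in capitals. They lie at chrX:130165792-130166091 (minus strand), chr4:184734047-184734346 (minus strand), chr16:78099404-78099703 (plus strand) and chr18:36129649-36129948 (plus strand).
AIFM1: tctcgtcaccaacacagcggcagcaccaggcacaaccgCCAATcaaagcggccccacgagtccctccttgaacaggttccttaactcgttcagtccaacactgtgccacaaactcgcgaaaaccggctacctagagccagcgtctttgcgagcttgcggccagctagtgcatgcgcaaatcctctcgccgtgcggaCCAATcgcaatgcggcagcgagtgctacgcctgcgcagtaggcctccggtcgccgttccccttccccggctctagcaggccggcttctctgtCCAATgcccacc
CENPU: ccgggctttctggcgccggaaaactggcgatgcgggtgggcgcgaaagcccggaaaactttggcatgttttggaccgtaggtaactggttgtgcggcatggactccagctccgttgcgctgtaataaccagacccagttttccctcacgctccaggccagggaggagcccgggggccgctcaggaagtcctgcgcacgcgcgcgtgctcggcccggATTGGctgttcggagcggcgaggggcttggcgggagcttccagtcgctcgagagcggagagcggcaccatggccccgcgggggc
WWOX: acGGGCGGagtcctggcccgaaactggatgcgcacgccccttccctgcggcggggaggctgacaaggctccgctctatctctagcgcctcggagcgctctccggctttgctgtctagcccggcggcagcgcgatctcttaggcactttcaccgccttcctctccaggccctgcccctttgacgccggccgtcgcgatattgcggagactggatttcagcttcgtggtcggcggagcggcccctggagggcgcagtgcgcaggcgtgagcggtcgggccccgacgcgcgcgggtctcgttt
ELP2: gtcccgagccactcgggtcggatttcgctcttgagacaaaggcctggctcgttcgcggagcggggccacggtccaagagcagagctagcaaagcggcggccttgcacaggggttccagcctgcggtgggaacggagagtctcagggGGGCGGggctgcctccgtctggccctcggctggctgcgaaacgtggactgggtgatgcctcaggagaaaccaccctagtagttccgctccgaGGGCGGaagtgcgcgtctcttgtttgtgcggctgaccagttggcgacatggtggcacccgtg

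The AIFM1 window holds CCAAT 3 times and the CENPU window holds it once, on the other strand, 34 bases before the start. CCGGAAG (ETS factors) occurred for 1 gene, KRT8, 58 bases before its start, and in 10.3% of all windows. The other motifs had no match in these windows, namely CTCGCGAG (ZBTB33, 1.02% of all windows), ACTACAATT (ZNF143, 0.336%), CGCATGCGC (NRF1, 1.92%), GATGGCG (YY1, 4.2%), CACGTG (the E-box, 7.26%), TGACGTCA (the cAMP response element, 1.85%), TGANTCA (AP-1, 7.71%), AGATAA (erythroid GATA1, 10.3%) and TATAAA (the TATA box, 11.5%). GC content was 61.7% for AIFM1, 67.0% for CENPU, 80.7% for UNC5A, 69.0% for WWOX, 65.7% for ELP2 and 77.3% for the more GC-rich start of EPS15, against a median of 58.7% over all windows. KRT8 stood apart with 50.7% GC and a CpG ratio, observed over that predicted from base composition, of 0.111, where the median of all windows was 0.579 and those 6 windows held 0.819 to 1.06. The less GC-rich EPS15 start had 33.7% GC and no CpG. The windows of these genes therefore do not share one base composition or one of the searched motifs.

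DPF2 was high and H3K14cr low at most of the 9 sites, and the 2 libraries of each antibody gave like values. Levels are CPM, the reads in the 1 kb region scaled to equal library totals. WWOX (chr16:78133001-78134000) held 29.0 and 24.8 CPM of DPF2 in replicates 1 and 2, with 4.60 and 3.63 CPM of H3K14cr. KRT8 (chr12:53297001-53298000) held 26.3 and 24.5 CPM of DPF2 and 2.76 and 3.74 CPM of H3K14cr. ELP2 (chr18:33709001-33710000) held 24.3 and 23.9 CPM of DPF2 and 6.43 and 6.51 CPM of H3K14cr. These 3 genes had the most DPF2 of the 9, and ELP2 also had the most H3K14cr. ELP2 was the only member among the highest 0.1% of regions in all 4 libraries.

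EPS15 (chr1:51985001-51986000) held 18.1 and 14.9 CPM of DPF2 and 1.65 and 1.73 CPM of H3K14cr. UNC5A (chr5:176237001-176238000) held 15.7 and 16.0 CPM of DPF2 and 1.75 and 2.02 CPM of H3K14cr. CENPU (chr4:185655001-185656000) held 15 and 13.1 CPM of DPF2 and 1.19 and 1.32 CPM of H3K14cr. At these 3 genes every DPF2 value was above every H3K14cr value, as it was at all 9. INTS10 (chr8:19674001-19675000) held 14.4 and 12.8 CPM of DPF2 and 1.75 and 1.61 CPM of H3K14cr. WWP1 (chr8:87354001-87355000) held 9.50 and 11.0 CPM of DPF2 and 1.19 and 1.5 CPM of H3K14cr. AIFM1 (chrX:129300001-129301000) held 6.68 and 7.06 CPM of DPF2 and 0.460 and 0.633 CPM of H3K14cr. In these 1 kb regions AIFM1 had the least DPF2 and the least H3K14cr, from 146 pooled DPF2 reads and 16 pooled H3K14cr reads. Its DPF2 summit lay near the lower-coordinate edge of the region, so part of the rise fell outside. Within 300 bp of the summit AIFM1 held 199 DPF2 and 28 H3K14cr reads, against 198 and 24 at WWP1. Replicate 1 over replicate 2 gave 0.861 to 1.22 with the DPF2 antibody, 0.726 to 1.27 with the H3K14cr antibody, and all 9 exact 95% intervals held 1 for both antibodies.

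**Figure D1:**
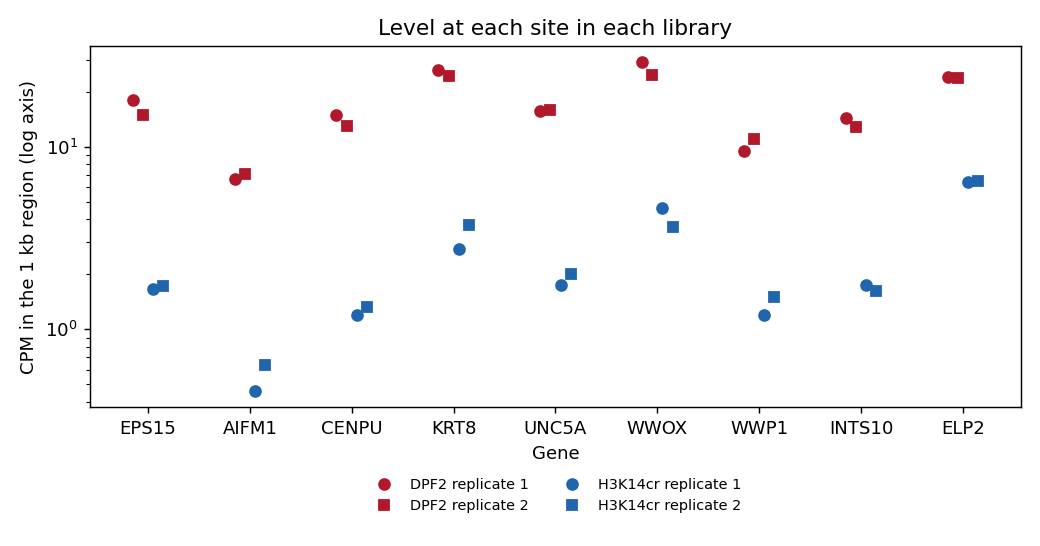
CPM in the 1 kb region (log axis) at each of the 9 genes, with 1 point per library, circles for replicate 1 and squares for replicate 2. Every DPF2 point lies above every H3K14cr point of the same gene, and the gap is narrowest at ELP2.

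Pooled over replicates, the DPF2 to H3K14cr ratio in the 1 kb region ran from 3.71 at ELP2 to 12.2 at AIFM1, with a median of 8.06. Intervals here are exact 95% binomial intervals on the pooled reads, and they cover counting error only. The ratio was 12.2 (7.27 to 21.9) at AIFM1, 10.8 (7.64 to 15.8) at CENPU and 9.45 (6.97 to 13.1) at EPS15. UNC5A followed with 8.30 (6.21 to 11.3), INTS10 with 8.06 (5.90 to 11.2), WWP1 with 7.58 (5.38 to 11.0), KRT8 with 7.48 (6.0 to 9.41) and WWOX with 6.59 (5.37 to 8.14). In this order the intervals of neighbouring genes overlapped down to WWOX. ELP2, at 3.71 (3.13 to 4.42), lay below the intervals of the other 8. The order of those 8 depends on where the 1 kb regions fall, since the EPS15 and AIFM1 summits lie near an edge. Within 300 bp of the summit the ratio was highest at CENPU (11.6), with 9.51 at AIFM1 and 6.90 at EPS15, and ELP2 was still lowest at 3.30. As background, the median ratio was 0.93 over the 5582 regions enriched for DPF2 and 0.903 over the 255612 regions with a mean of at least 10 reads.

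Enrichment was read against the chromosome mean or the mean of the surrounding 20 kb, whichever was larger. A region was called where a one-sided Poisson test passed an adjusted p of 0.001 (Benjamini-Hochberg) with a fold of at least 3 in both libraries of an antibody. All 9 members were called for DPF2, where 0.215% of covered regions were. They were chosen for this, so nothing is read from the count. The mean DPF2 fold was 34.2 at INTS10, 31.4 at CENPU, 29.7 at WWOX, 26.8 at ELP2 and 25.5 at WWP1, which rank 2, 3, 4, 5 and 7 by fold among the 5582 called regions. It was 24.6 at KRT8, 18.6 at UNC5A, 14.2 at EPS15 and 10.0 at AIFM1 (rank 100), and the median of all called regions was 4.55. The folds of EPS15 and AIFM1 leave out the part of the rise beyond the lower-coordinate edge of their regions. WWP1 and INTS10, both on chromosome 8, thus rank high by fold with modest CPM. In the 1 Mb around them read levels were 0.604 to 0.689 and 0.794 to 0.867 times the genome median over the 4 libraries, whereas KRT8 lay in a segment at 2.94 to 3.42 times and UNC5A in one at 2.99 to 3.39 times. The segments of the other 5 genes had 1.19 to 2.28 times the median, in both antibodies alike. How far copy number accounts for these levels was not tested.

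H3K14cr was called at 3 of the 9 members, WWOX, INTS10 and ELP2, where 0.416% of covered regions were called. Their mean H3K14cr folds were 4.56, 4.04 and 6.25, and AIFM1 was lowest of the 9 at 0.849. WWP1, at 2.99-fold and 3.71-fold in the 2 libraries, missed the fold of 3 in 1 library only. The count depended on the settings, being 8 (all but AIFM1) against the chromosome mean alone, 6 with the grid moved by 500 bp, and 1 (ELP2) at a fold of 5. Low H3K14cr was part of the choice of members, so the count describes them.

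The regions beside the members were called in the same way. The 20 kb background of a neighbour includes the member region, so a strong member can lower the DPF2 fold beside it and hinder a call. Of the 90 neighbouring 1 kb regions, 5 on each side of a member, 87 held reads. Of these 1 was called for DPF2, the one just before AIFM1 at 5.78-fold, where 0.215% of all covered regions were called. The DPF2 rise of AIFM1 itself runs into that region. Of its 4.74 CPM of DPF2, the 2 bins nearest the member held 1.66 and 1.09 CPM. With the grid moved by 500 bp no neighbour was called for DPF2. DPF2 was 3.38-fold just before EPS15 and 2.51-fold just after INTS10 without passing the call in both libraries, and 15 neighbours were called against the chromosome mean alone. For H3K14cr 5 neighbours were called, each touching its member region, where 0.416% of all covered regions were called. H3K14cr was 6.82-fold just before EPS15, 3.87-fold just before AIFM1 and 3.07-fold just before ELP2, and 5.93-fold and 5.65-fold just after INTS10 and WWP1. Thus EPS15, AIFM1 and WWP1, not called for H3K14cr themselves, each had a called region directly beside them. At EPS15 H3K14cr was 5.81 CPM in that neighbour, against 1.65 and 1.73 CPM in the member region. KRT8 and UNC5A had no H3K14cr call in any of the 11 regions from 5 kb before to 5 kb after, and CENPU in none of its 8 regions with reads. Without passing the call in both libraries, mean H3K14cr was still 4.03-fold just before CENPU and 3.13-fold in the region 4 kb after KRT8. At CENPU no library had a read from 2000 to 5000 bp above the region's centre, and why was not tested.

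Profiles in 100 bp bins showed a single sharp DPF2 rise at most of the genes. Width was measured midway between the baseline, 3 to 5 kb away, and the summit of the pooled 300 bp running mean, within 1 kb of the region's centre. CENPU was narrowest at 427 bp (402 and 419 bp in the single libraries), followed by EPS15 at 448 bp (445 and 450 bp) and INTS10 at 466 bp (425 and 483 bp). AIFM1 measured 476 bp (414 and 508 bp), WWOX 476 bp (470 and 475 bp) and WWP1 495 bp (498 and 484 bp). KRT8 measured 539 bp (551 and 530 bp), UNC5A 570 bp (595 and 555 bp) and ELP2 732 bp (718 and 731 bp). The libraries differed most at AIFM1, by about as much as separates most of the members, while ELP2 was wider than the other 8 in both. The width of genes with more than one rise depends on the smoothing, and without it the single highest rise measured 222 bp at ELP2, 198 bp at UNC5A and 235 bp at AIFM1, against 339 to 430 bp at the other 6. All 9 DPF2 summits lay within 100 bp of each other between libraries. The summits were at positions 51985151 (EPS15), 129300151 (AIFM1), 185655351 (CENPU), 53297351 (KRT8), 176237351 (UNC5A), 78133451 (WWOX), 87354651 (WWP1), 19674751 (INTS10) and 33709351 (ELP2).

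**Figure D2:**
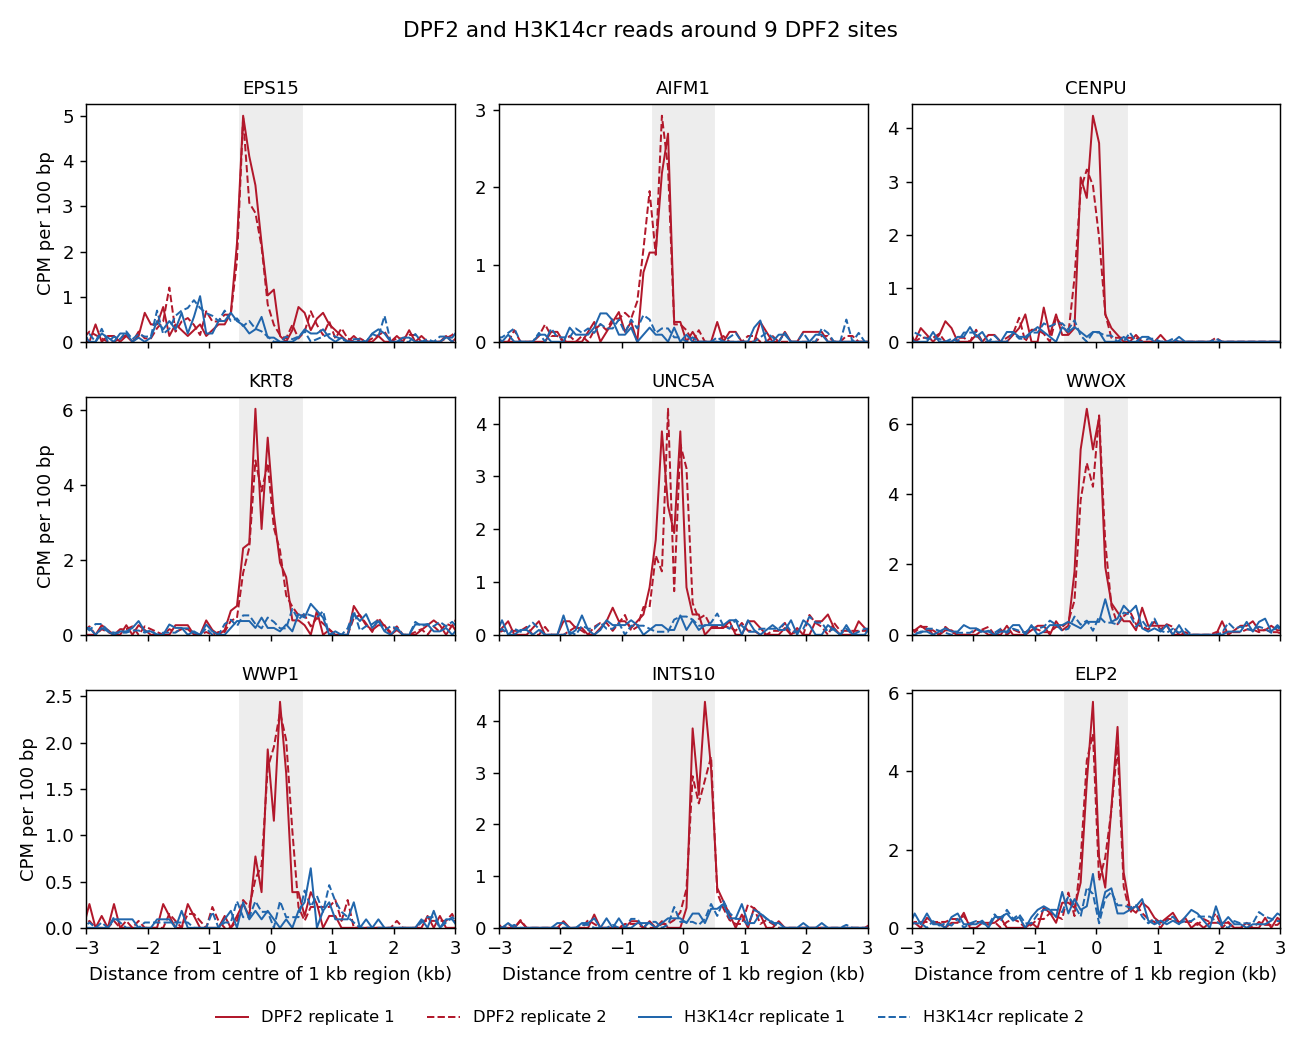
CPM per 100 bp bin in each of the 4 libraries (solid lines for replicate 1, dashed for replicate 2), against distance in kb from the centre of the 1 kb region, which is shaded, at each of the 9 genes; the vertical scale differs between panels. DPF2 forms a sharp rise under 1 kb wide over a low floor, ELP2 and UNC5A show a pair of rises, and H3K14cr is low and lies mostly to the side.

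The summit of the running mean stood 34.3 (ELP2) to 94.3 (CENPU) times above the baseline, with a median of 52.3. The CENPU baseline includes the empty stretch, and over the baseline of the covered side alone its summit stood 47.1 times higher. Of all DPF2 reads in the 10 kb window, 75.7% at INTS10 and 72.9% at CENPU lay within 300 bp of the summit, against 41.0% at ELP2. The median over the 9 genes was 61.5% for DPF2 and 16.3% for H3K14cr, whose range was 10.9% to 21.7%. Most DPF2 reads of the window were thus packed into a few bins at every gene but ELP2, and H3K14cr reads were packed there to a lesser degree.

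ELP2 and UNC5A had a pair of DPF2 rises in place of one. At ELP2 the highest bins, 400 bp apart, held 111 and 102 pooled reads and the lowest bin between them 30. Both libraries showed this dip, with 45, 14 and 40 reads in replicate 1 and 66, 16 and 62 in replicate 2. H3K14cr reads in the same bins were 15, 3 and 4 in replicate 1 and 15, 2 and 10 in replicate 2. Other bins between the DPF2 rises held more H3K14cr than the second rise did. Those centred 150 and 250 bp above the region's centre held 10 and 11 reads in replicate 1 and 13 and 16 in replicate 2. H3K14cr was thus low in the bin of the DPF2 dip but not across the whole space between the rises. At UNC5A the bins lay 200 bp apart with 76, 26 and 78 pooled reads. Replicate 2 of UNC5A had 57, 11 and 48 reads and replicate 1 had 19, 15 and 30, a shallower dip. Bins of different libraries start at different bases, which shifts such narrow features between them. At the other 7 genes, in pooled reads, the lowest bin between the highest bins held at least 0.686 of the lower one.

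The ratio of DPF2 to H3K14cr was examined in bands of distance from the DPF2 summit. Since the members were chosen by this ratio, the values nearest the summit are a description and their lying above 1 follows from the choice. Within 300 bp of the summit the ratio ran from 3.30 at ELP2 to 11.6 at CENPU with a median of 9.80, and all 9 intervals lay above 1. From 300 to 1000 bp the median was 1.11, and 8 of 9 intervals held 1. ELP2 was the exception at 2.0 (1.64 to 2.43), where its second rise falls. From 1000 to 2000 bp the median was 0.885 and 7 of 9 intervals held 1, with EPS15 above at 1.34 (1.01 to 1.77) and ELP2 below at 0.717 (0.515 to 0.990). From 2000 to 4000 bp the median was 1.03 and 7 of 9 held 1, with KRT8 below at 0.625 (0.486 to 0.798) and ELP2 at 0.742 (0.564 to 0.970). Scaling by median-of-ratios factors over enriched regions raised every ratio 1.30-fold (0.38 on the log2 scale), and 5 intervals in the band from 300 to 1000 bp then lay above 1, with 4 holding it. Within 300 bp all 9 stayed above 1 under that scaling, at a median of 12.7. From 1000 to 2000 bp 8 intervals then held 1 and 1 lay above, and from 2000 to 4000 bp 7 held 1 and 2 lay above. None lay below 1 in these outer bands, so the low values at KRT8 and ELP2 depend on the scaling.

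**Figure D3:**
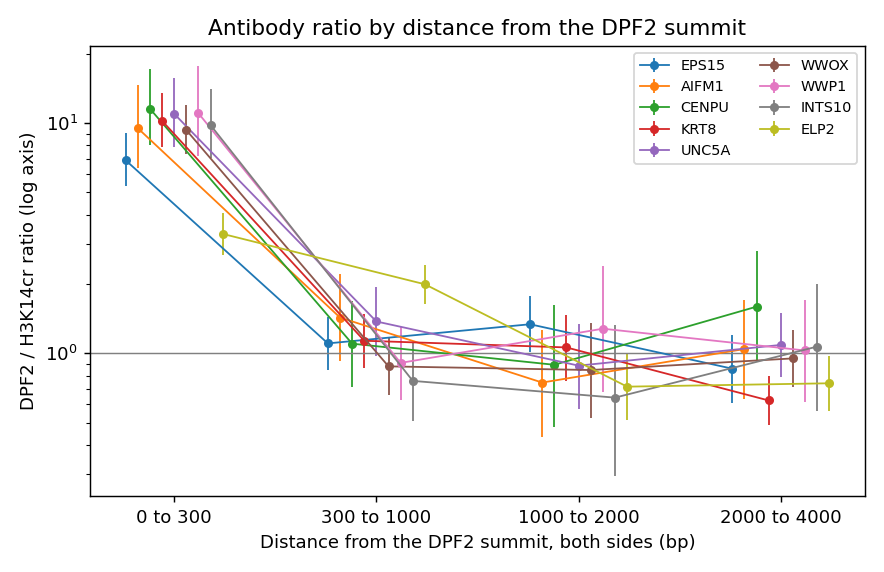
Ratio of DPF2 to H3K14cr (CPM, log axis) in bands of distance in bp from the DPF2 summit, with 1 point and a 95% counting interval per gene. The ratios fall from 3.30 to 11.6 within 300 bp to values around 1 in the outer bands.

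H3K14cr was highest beside the DPF2 summit at 8 of the 9 genes, by 200 bp or more. Its highest 300 bp was sought over the whole 10 kb window, where a noisy low profile would also often peak off the summit. Low H3K14cr in the member region was also part of the choice, so nothing is read from that count. The highest 300 bp of H3K14cr lay 900 bp towards lower coordinates at EPS15 and AIFM1 and 300 bp that way at CENPU. It lay towards higher coordinates at KRT8 (900 bp), WWOX (600 bp), WWP1 (500 bp), INTS10 (300 bp) and UNC5A (200 bp), and at the DPF2 summit itself at ELP2. Single libraries gave the same place within 100 bp at EPS15, UNC5A, WWOX, WWP1 and INTS10. At AIFM1 (900 and 400 bp), CENPU (300 and 600 bp), KRT8 (900 and 600 bp) and ELP2 (200 and 400 bp) the libraries placed it farther apart.

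H3K14cr at the DPF2 summit, over its highest level in the window, had a median of 0.476. It was 0.333 at WWP1, 0.382 at INTS10, 0.400 at CENPU, 0.459 at EPS15, 0.476 at AIFM1, 0.510 at KRT8, 0.600 at WWOX, 0.720 at UNC5A and 1.00 at ELP2. This measure cannot exceed 1 by its construction, and a low H3K14cr level in the member region was part of the choice of members. With the place taken from one library and the reads from the other, the median was 0.619. There the DPF2 summit held fewer H3K14cr reads than the highest place in 14 of 18 comparisons, and in both directions at 6 genes. At EPS15 the place held 42 and 19 reads and the DPF2 summit 19 and 9. At INTS10 they were 21 and 13 against 6 and 7, and at WWP1 13 and 10 against 7 and 2. Both comparisons at ELP2 and 1 each at CENPU and UNC5A did not show fewer reads at the summit. This cross-library comparison was chosen after the data had been seen and does not remove the choice of members on these same libraries, and with 2 to 42 reads a window its precision is low.

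H3K14cr was also uneven between the 2 sides of the DPF2 summit at most of the genes. Reads 200 to 1500 bp from the summit were counted on each side, a choice made after the data had been seen, and set against the direction of transcription where the RefSeq table gave a strand. EPS15 had 196 H3K14cr reads on the lower-coordinate side and 35 on the other, and the gene is on the minus strand, so 84.8% (79.6 to 89.2) lay downstream of the summit in the sense of that strand. AIFM1 had 65 and 9 reads, 87.8% (78.2 to 94.3) downstream. CENPU had 59 and 14 reads, 80.8% (69.9 to 89.1) downstream. DPF2 reads there were 49 and 21, and the higher-coordinate side leads into the stretch of CENPU with no reads in any library. Whether sparse coverage of that side plays a part was not tested. At these 3 minus-strand genes H3K14cr lay mainly on the lower-coordinate side of the DPF2 rise. Where the summits lie relative to the gene starts was not analysed. WWOX, on the plus strand, had 75 and 110 reads, 59.5% (52.0 to 66.6) downstream. UNC5A (54.2%, 44.8 to 63.4) and ELP2 (52.5%, 46.5 to 58.5) had intervals that held 50%. KRT8, on the minus strand, was the reverse, with 59 and 121 reads and 32.8% (26.0 to 40.2) downstream. For WWP1 and INTS10 no strand was taken, and 66.3% (56.1 to 75.6) and 66.0% (56.0 to 75.1) lay at higher coordinates.

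In all, 4 of 7 genes with a strand, among them CENPU with its empty stretch, had an interval wholly above 50% downstream and 1 below it. DPF2 reads in the same side windows were 80.0% downstream at AIFM1, 70.0% at CENPU, 58.3% at WWOX and 54.0% at EPS15. They were 37.9% at KRT8 and 33.3% at UNC5A, and 81.8% at ELP2, whose second rise falls in the window. The windows begin 200 bp from the summit, where the DPF2 rise had not always ended, so its shape enters these DPF2 shares. At KRT8, for example, the rise extended 284 bp towards higher coordinates at the height used for width. At EPS15 the sides differed for H3K14cr far more than for DPF2, whereas at AIFM1 and CENPU both antibodies leaned the same way.

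**Figure D4:**
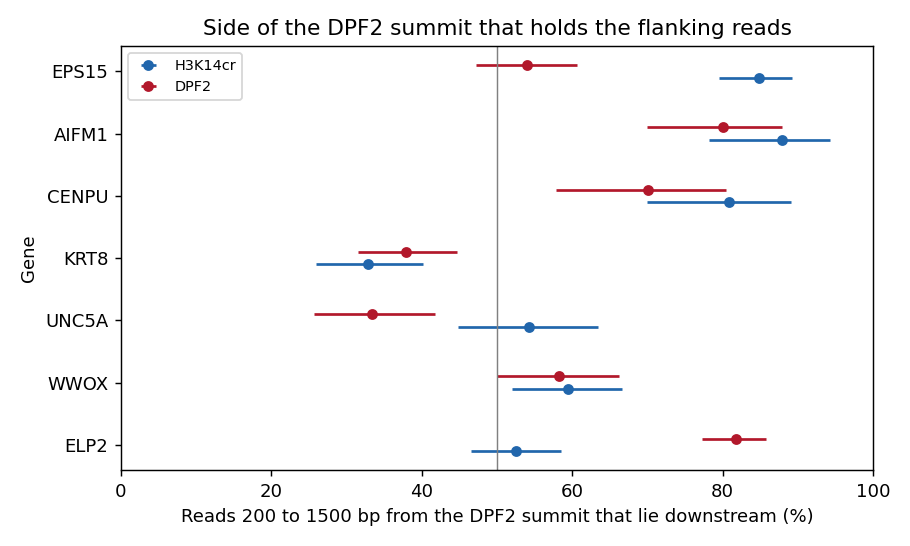
Percentage of reads on the downstream side, 200 to 1500 bp from the DPF2 summit, for each antibody at the 7 genes with a strand, with 95% counting intervals and a line at 50%. H3K14cr is highest downstream at AIFM1 (87.8%), EPS15 (84.8%) and CENPU (80.8%) and lowest at KRT8 (32.8%).

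The members were set beside other strong DPF2 regions, meaning called regions whose DPF2 fold in the lower library was at least 9.40, that of AIFM1, the lowest member. There were 92 such regions besides the members, and 72 remained after the 20 among the highest 0.1% in all 4 libraries were left out. The members' place among them follows from the choice of members, so no test is given. The comparison regions were matched to the weakest member only, with a median lower-library fold of 12.0 against 24.5 for the members, and 6 of the 9 members exceeded the highest of them (22.95). The limit taken from AIFM1 also depends on the grid, since part of its rise lies outside its region. The 72 regions had a median width of 476 bp (quartiles 388 and 596 bp), equal to the members' median of 476 bp, and 36 of them were narrower than it. The narrowest measured about the 300 bp of the running mean and were high for both antibodies. Examples are chr4:49151001-49152000 (296 bp, ratio 2.01) and chrX:136520001-136521000 (297 bp, ratio 1.32), both called for H3K14cr. Such regions enter the count of narrower ones and the median ratio and H3K14cr share given below. None of the 72 regions reached the fold of those 6 genes, so widths at like strength were not compared for them. The median ratio of the 72 was 2.74 (quartiles 1.56 and 4.52), below the ratio of each member, and 4 exceeded the members' median ratio of 8.06. H3K14cr was called at 49 of the 72, or 68.1% (exact 95% interval 56.0 to 78.6), and at 3 of the 9 members.

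A ratio of at least 3.71 and a width of at most 732 bp, the limits of the members, were met by 24 of the 72 regions, 18 of them within both the lowest and the highest values of the members. Both limits are set by ELP2, itself among the highest 0.1% in all 4 libraries, and with those of the other 8 genes (a ratio of at least 6.59 and a width of at most 570 bp, chosen after the data had been seen) 5 regions met them. Of the 24, the 3 with the highest mean DPF2 fold were chr12:75724001-75725000 (23.4-fold, ratio 9.19, 452 bp), chr12:14410001-14411000 (23.2-fold, ratio 7.44, 501 bp) and chr5:115910001-115911000 (21.4-fold, ratio 5.37, 512 bp). Genes at these positions were not analysed here.

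**Figure D5:**
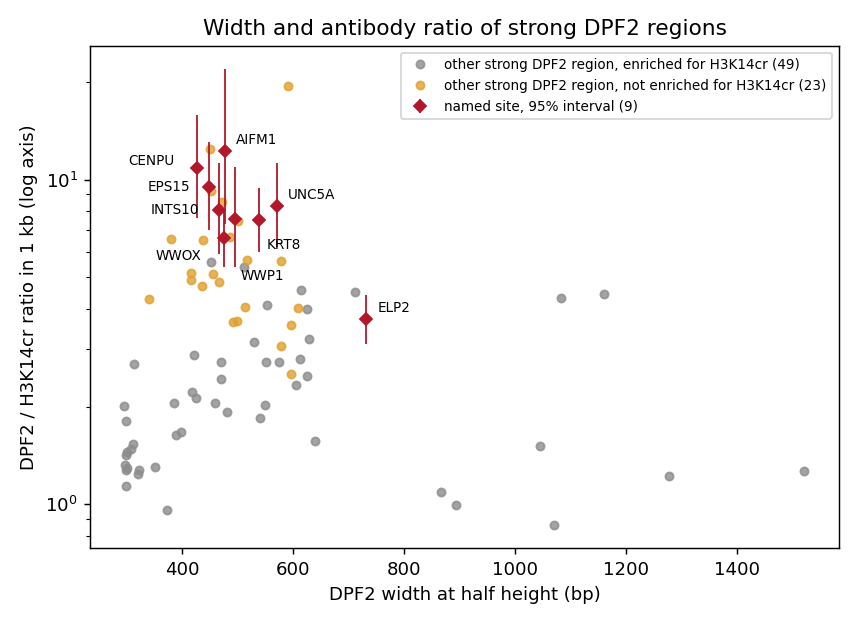
Ratio of DPF2 to H3K14cr in the 1 kb region (log axis) against DPF2 width in bp for the 9 named sites, with 95% counting intervals, and for 72 other regions with at least the DPF2 fold of AIFM1. The members lie between 427 and 732 bp with ratios of 3.71 to 12.2, a range that holds 18 of the other regions.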

How the data were processed

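ChIP-seq signal was analysed in 4 K562 libraries, 2 with a DPF2 and 2 with an H3K14cr antibody, with the group and replicate number from each title. No control library was analysed here. The submitters' processing notes name Bowtie2, with no version, and the builds mm9 and hg19, and say nothing of duplicates or of how bins were made. Coordinates were read as hg19. The deposited signal files list 100 bp bins holding at least 1 read, scaled to 10000000 reads per library. Whole reads were recovered for all but 1, 3, 4 and 0 values (100%, 100%, 99.9999% and 100% whole within 0.005).

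Reads were assigned to 1 kb regions by bin midpoint and tested as described with the results, adjusting over all covered regions. The surrounding background is the mean of covered regions among 10 on each side, the region itself left out, a definition settled with earlier results of these data in view. The members, comparison regions and lists were likewise chosen with earlier results of these data known. The non-members named were those of highest DPF2 fold within the members' limits of ratio and width. Reads carry no molecular identifiers, so intervals cover counting error only. Calling and width measurement were tested on simulated data. Computations used scipy 1.17.1 and numpy 2.4.6 under Python 3.11.15, tables pandas 2.3.3, and figures matplotlib 3.10.9.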

Additional observations from a re-analysis of the deposited data

How the results depend on the processing

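All 9 members were enriched for DPF2 under every setting tried. The median ratio was 12.0 in 500 bp at the summit, 4.32 in 2 kb, 2.41 in the 10 kb window and 7.88 to 9.09 without one library. The median width was 401 bp without smoothing, 579 bp with 5 bins, 488 bp from a baseline of 0, 658 bp at 25% of the height and 470 to 484 bp without one library. Members enriched for H3K14cr numbered 1 at a fold of 5, 8 against the chromosome mean, 6 with the grid moved by 500 bp and 3 to 4 without one library. Neighbours enriched for DPF2 numbered 0 at a fold of 5, 15 against the chromosome mean, 2 with 500 bp regions, 0 with the grid moved, 2 with libraries summed and 1 to 2 without one library; for H3K14cr they were 3, 20 and 2 (fold of 5, chromosome mean, moved grid). H3K14cr at the DPF2 summit was 0.645 of its highest level with 500 bp windows, 0.619 with place and level from different libraries, and 0.459 to 0.552 without one library. Among single members, 69 of 99 ratios and 30 of 63 widths stayed within their error, and no ratio fell below 1, while without smoothing ELP2 (222 bp) went from the widest to the second narrowest after UNC5A (198 bp). AIFM1 rests on 16 H3K14cr reads, and its ratio reached 31.6 with flank reads subtracted. With a replicate block, added after seeing the data, in which ratios were formed within each replicate number and averaged, the median ratio was 8.10 (8.97 for number 1, 7.94 for number 2); nothing in the labels says that a number pairs the libraries, and no widths or calls could be paired since each comes from 1 antibody.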
